A study of Mus musculus with 4 samples.

Results

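The Cep, Ift and Bbs gene families encode proteins of the centrosome and of the primary cilium, the single sensory antenna that most neurons and astrocytes carry. Their transcripts were compared in the hippocampus of mice after a bone fracture operation and of control mice. Members were the protein-coding genes of the deposited table whose symbol begins with Cep, Ift or Bbs followed by a digit. Of the 29300 genes listed, 58 met this rule, namely 36 Cep, 14 Ift and 8 Bbs genes. The mice were male C57BL/6 animals aged 7 to 8 months. Control mice (labelled sham) received isoflurane anesthesia and the analgesic tramadol without a fracture. Surgery mice received the same anesthesia and analgesia plus an open fracture of the tibia that was fixed by a nail in the bone. Hippocampal tissue was taken on day 1 after the operation, and poly(A) RNA was sequenced from 2 mice in each group. Since both groups were anesthetized, the comparison addresses the fracture operation and not the anesthesia.

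A primary cilium grows from the older of the paired centrioles at the core of the centrosome. Cep proteins build and lengthen centrioles, form the appendages that dock the mother centriole at the membrane, gather the pericentriolar material that nucleates microtubules, or guard the transition zone at the base of the cilium. Ift proteins form the intraflagellar transport trains, in which the IFT-B complex moves with kinesin towards the ciliary tip and the IFT-A complex moves with dynein back to the base. Bbs proteins, named after Bardet-Biedl syndrome, form the BBSome coat that carries membrane receptors out of cilia, or act as chaperonin-like helpers in its assembly. In hippocampal neurons the ciliary membrane holds receptors such as the somatostatin receptor Sstr3 and the adenylyl cyclase Adcy3.

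Library totals ran from 15763432 to 18573386 counts, and 24238 to 25324 genes were detected in a mouse. Counts were divided by library totals after TMM scaling and are given as CPM, and 17144 genes passed the filter on low counts. The filter kept 34 Cep, 14 Ift and 8 Bbs genes, 56 members in all. The other two were Cep55, which acts in the last step of cell division and had 2, 2, 4 and 2 counts in the mice (controls first), and Cep295nl, with 3, 3, 1 and 4 counts. A gene was called higher or lower at an adjusted p under 0.05 by edgeR's quasi-likelihood F test with Benjamini-Hochberg adjustment over all genes tested. It was called a differentially expressed gene (DEG) where its fold change was also at least 1.5 or at most 0.67. The labels name no batch, and the p-values rest on the spread between the 2 mice of each group, estimated jointly over genes. Because the tissue is bulk hippocampus, a change in the number of cells of a type and a change of RNA per cell cannot be told apart.

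Among the centrosomal Cep genes 31 of 34 log2 fold changes were positive, whereas those of the Ift genes were split 7 to 7 and those of the Bbs genes 5 to 3. Over all 17144 genes tested, 8733 were positive. Of the 34 Cep genes tested, 15 (44.1%) rose and 2 (5.88%) fell, where 13.1% of all genes tested rose and 12.8% fell. Among the 14 Ift genes 3 (21.4%) rose and 2 (14.3%) fell, shares nearer to those of all genes. The number that fell was 1 by DESeq2's test and 1 without the filter on low counts, where 12% and 4.61% of all genes fell. Of the 8 Bbs genes 2 rose and 0 fell by edgeR's test, with 1 lower at an unadjusted p under 0.05, and DESeq2's test called 0 Bbs genes in either direction, against 10.7% higher and 12% lower over all genes. The Cep family held 8 higher DEGs and the Ift family 2, against 6.75% of all genes tested, and no member was a lower DEG, a class that held 2.25% of all genes. The median log2 fold change was 0.39 for Cep, 0.01 for Ift and 0.06 for Bbs genes, against 0.01 over all genes tested. Both surgery mice lay above both control mice in 25 of the 34 Cep genes and below them in 3. The same count was 6 above and 6 below for the Ift genes, and 2 and 2 for the Bbs genes. Over all genes tested the shares were 33.2% above and 32.2% below. After a correction for the GC content and length of transcripts 0 of the 56 members passed, and 26 of the 31 Cep genes with a positive value kept one. So did 5 of 7 Ift genes and 0 of 5 Bbs genes, and 7811 of the 17120 genes fitted were positive after it. The number of Cep genes that rose was also lower, at 9, without the filter on low counts and, at 8 to 9, when a mouse was left out, and the share of all genes that rose fell too, to 4.49% without the filter and to between 6.88% and 11.7% without a mouse.

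These family values were close between mice of a group. On the log2 (CPM + 0.1) scale, with the control mean set to 0, the median Cep gene stood at 0.04 and -0.04 in the control mice and at 0.40 and 0.45 in the surgery mice. The median Ift gene stood at -0.07 and 0.04 in the surgery mice, and the median Bbs gene at 0.07 and 0.06. The SD of the family median between replicates was 0.04 for Cep, 0.05 for Ift and 0.02 for Bbs genes. The distance between the groups was larger than this spread for the Cep genes and for the Bbs genes, whose median stood at 0.01 and -0.01 in the control mice. For the Ift genes it was not. The Bbs median was small and not stable, since it ran from 0.03 to 0.14 in the edgeR fits that left out a mouse. It was -0.13 after the length and GC correction by the longest transcript, with 0 of 8 genes positive. By the median transcript it was -0.18, but Bbs1, Bbs4 and Bbs5 were positive, so these signs depend on the transcript chosen.

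**Figure D1:**
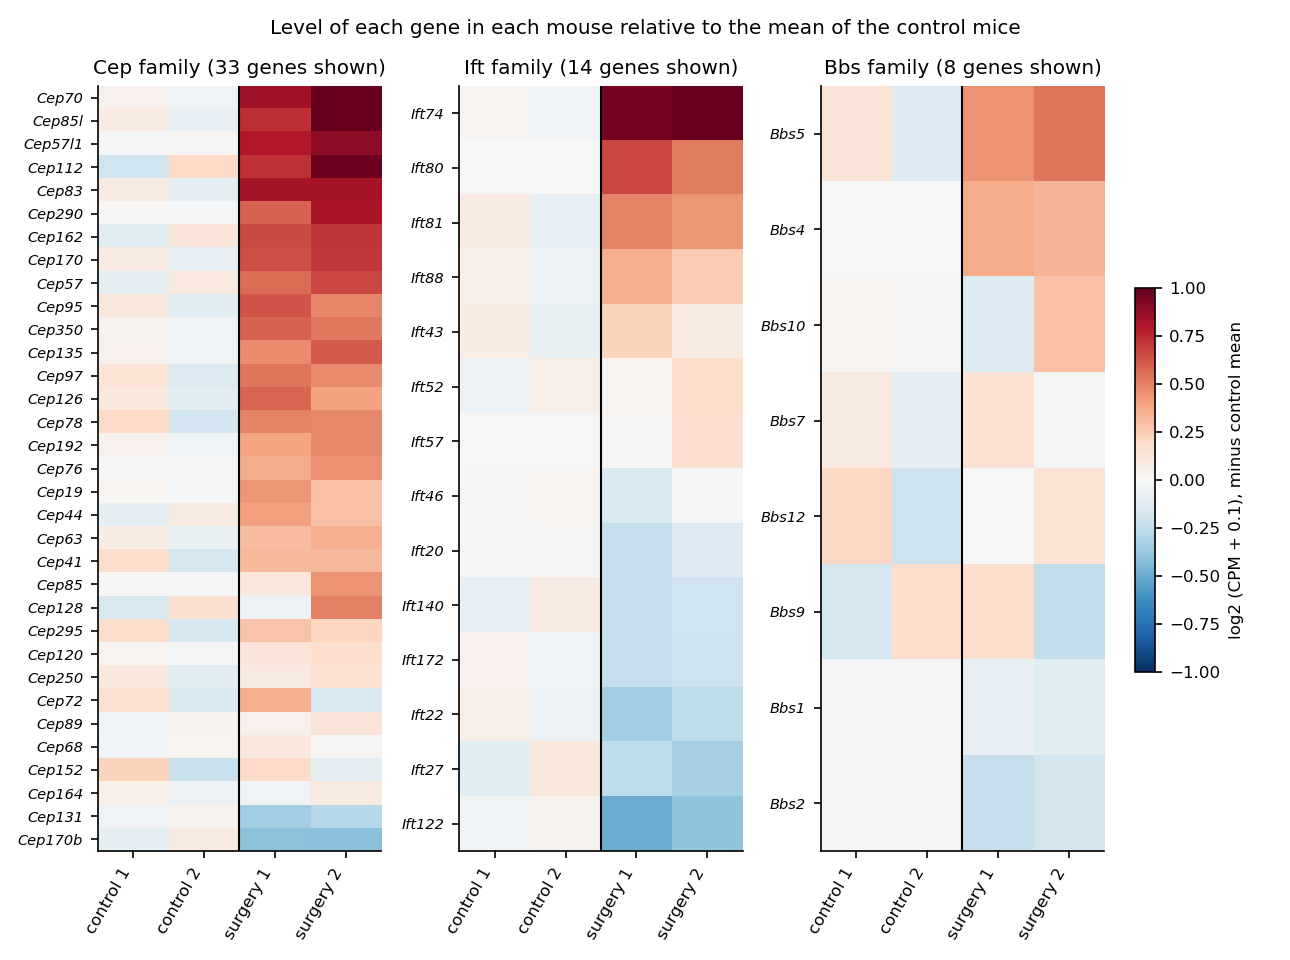
Heat map of 55 of the 56 members tested, 1 row per gene and 1 column per mouse, with the Cep, Ift and Bbs families in separate panels. Color is the log2 (CPM + 0.1) level minus the control mean, limited to between -1 and 1. Red fills most of the Cep panel in both surgery mice, while the Ift and Bbs panels hold red and blue rows.

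Many cilium genes are controlled by RFX transcription factors, which bind a motif called the X-box. The promoter sequences of the members were therefore searched for its core GTTGCC and for the longer form GTTNCCATG (N is any base) on both strands. These forms overlap where N is G. RefSeq windows of the GRCm38.p6 build, from 250 bases before to 50 bases after the start of transcription, were at hand for 49 of the 58 members. GTTGCC lay in the 300 bases of 16 of these 49 genes (32.7%), against 14.1% of all 27025 genes with a window. In the 250 bases before the start alone, the counts were 8 of 49 (16.3%) against 11.8%, so the window changed the share. The 250-base search was added after the matches in the 300 bases had been seen. The longer form lay in 3 members, Cep68, Cep112 and Cep126 (6.12%, against 2.22% of all genes). Windows of members had a median GC content of 62.0%, against 52.7% over all windows, and the part of base composition in these shares was not tested.

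The core was found both in members that rose and in members that did not. It lay in 4 of 16 members that rose (Cep19, Cep57, Cep97 and Bbs5), in 1 of 3 that fell (Cep170b) and in 11 of 29 that did not pass the test. The 7 sequences shown run 5′ to 3′ on the strand of the gene, from 120 bases before to 30 bases after the start, with the motifs in capitals. This stretch and the genes shown were picked after the matches were known, so the sequences are examples only. Cep70 and Ift74 are shown because they had the largest rises of their families and hold neither motif. Cep57 and Cep97 rose and hold the core, as do Ift88 and Ift57, which did not pass the test. Cep112 holds the core inside the longer form, read on the opposite strand.
Cep70 (chr9:99243221-99243370, plus strand): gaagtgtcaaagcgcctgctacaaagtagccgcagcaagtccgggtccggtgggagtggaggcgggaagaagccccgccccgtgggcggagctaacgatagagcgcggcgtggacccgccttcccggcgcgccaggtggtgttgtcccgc
Ift74 (chr4:94614371-94614520, plus strand): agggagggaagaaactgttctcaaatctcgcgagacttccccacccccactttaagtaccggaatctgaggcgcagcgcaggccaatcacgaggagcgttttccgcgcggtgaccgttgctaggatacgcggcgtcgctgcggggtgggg
Cep57 (chr9:13827024-13827173, minus strand): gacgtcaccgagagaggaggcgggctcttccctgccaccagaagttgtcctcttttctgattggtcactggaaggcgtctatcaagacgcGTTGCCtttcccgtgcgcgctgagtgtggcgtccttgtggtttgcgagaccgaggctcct
Cep97 (chr16:55934819-55934968, minus strand): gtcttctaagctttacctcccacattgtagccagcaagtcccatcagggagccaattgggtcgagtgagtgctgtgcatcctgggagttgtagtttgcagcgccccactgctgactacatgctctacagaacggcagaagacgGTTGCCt
Ift88 (chr14:57423951-57424100, plus strand): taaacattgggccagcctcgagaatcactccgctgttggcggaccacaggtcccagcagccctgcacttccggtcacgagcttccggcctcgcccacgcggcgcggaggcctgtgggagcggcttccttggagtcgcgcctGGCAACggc
Ift57 (chr16:49699174-49699323, plus strand): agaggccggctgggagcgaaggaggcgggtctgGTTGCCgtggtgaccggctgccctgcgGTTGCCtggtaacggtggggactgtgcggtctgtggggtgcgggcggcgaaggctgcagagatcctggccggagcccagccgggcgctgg
Cep112 (chr11:108425146-108425295, plus strand): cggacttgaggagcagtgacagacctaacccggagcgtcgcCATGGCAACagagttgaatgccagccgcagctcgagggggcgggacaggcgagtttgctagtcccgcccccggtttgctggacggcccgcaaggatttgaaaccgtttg

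Among genes of centriole assembly and length, 5 of 13 rose and 0 fell, where 13.1% of all genes tested rose and 12.8% fell. All 13 log2 fold changes were positive. After the length and GC correction 10 were positive and 0 passed the test. Cep57l1, the paralogue of Cep57, had 2.73 and 2.79 CPM in the control mice and 4.89 and 5.21 CPM in the surgery mice. Cep57, which joins Cep63 and Cep152 in a ring around the base of the centriole, had 13.2 and 15.1 CPM and 20.8 and 22.5 CPM in the same order. Neither gene had overlapping groups, and their log2 fold changes were 0.87 (standard error 0.22, edgeR adjusted p = 0.032) and 0.61 (0.13, 0.016). Cep135, a part of the cartwheel that templates new centrioles, rose by 0.55, and Cep97, which caps the far end of centrioles with Ccp110, rose by 0.50. Cep192, the scaffold that recruits the kinase Plk4 and pericentriolar material, rose by 0.44 on the log2 scale. Cep63 stood at 0.33 with an edgeR adjusted p of 0.05002, just over the threshold. The other 7 of the group, Cep78, Cep76, Cep44, Cep85, Cep295, Cep120 and Cep152, had log2 fold changes from 0.04 for Cep152 to 0.48 for Cep78 and did not pass the test. Some 6.49% of the sequence windows of Cep85 also occur in other genes, so its counts are less certain.

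Appendage genes had 4 of 8 higher and 0 lower, against 13.1% and 12.8% of all genes tested, and all 8 log2 fold changes were positive. The role groups were not tested against each other. Cep83 (chr10:94688654-94790853 in mm10, plus strand), the distal appendage protein that starts the docking of the mother centriole, had 22.4 and 19.9 CPM in the control mice and 37.4 and 37.3 CPM in the surgery mice. This was a rise from 21.1 ± 1.80 to 37.4 ± 0.0305 CPM (SD, n = 2), or 1.77-fold, with a log2 fold change of 0.82 (standard error 0.10, edgeR adjusted p = 0.0049). The surgery mice were nearly equal and lay far above both control mice. Cep170, a marker of subdistal appendages, had 62.7 and 56.1 CPM in the control mice and 92.8 and 96.6 CPM in the surgery mice, again without overlap. Its log2 fold change was 0.67 (standard error 0.08, edgeR adjusted p = 0.0047), the lowest adjusted p of all members. Cep350, a large protein that anchors microtubules at the centriole, rose by 0.56 to 78.4 ± 2.23 CPM, and its partner Cep19 rose by 0.37 (edgeR adjusted p = 0.027). Cep112 had the log2 fold change 0.87, as large as that of Cep57l1, but with 31, 44, 56 and 71 counts its adjusted p was 0.061. Cep164, which brings the kinase Ttbk2 to the distal appendages, stood at 0.03, Cep89 at 0.08 and Cep128 at 0.25, and these did not pass the test.

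At the transition zone and axoneme, 2 of 4 genes rose, against 13.1% of all genes tested. Cep290 (chr10:100487558-100574840, plus strand), the gatekeeper protein whose human gene is mutated in Joubert syndrome and related ciliopathies, had 12.4 and 12.3 CPM in the control mice and 18.6 and 21.8 CPM in the surgery mice. The groups did not overlap, and its log2 fold change was 0.71 (standard error 0.13, edgeR adjusted p = 0.012). Cep162, which promotes assembly of the transition zone at the centriole tip, had 16.02 and 18.9 CPM in the control mice and 27.6 and 28.6 CPM in the surgery mice, a rise of 0.69 (edgeR adjusted p = 0.0095). Cep41, needed for glutamylation of axonemal tubulin, stood at 0.32 and did not pass the test.

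Genes of the satellites, the pericentriolar material and the linker between centrioles were mixed, with 2 of 6 higher and 1 lower. Over all genes tested 13.1% were higher and 12.8% lower. Cep70 (chr9:99243367-99300404 in mm10, plus strand), which binds gamma-tubulin, had the largest rise of the family. It had 14.7 and 13.8 CPM in the control mice and 25.6 and 28.8 CPM in the surgery mice, or 1.90-fold, with a log2 fold change of 0.93 (standard error 0.12, edgeR adjusted p = 0.0050). Cep126 rose by 0.50 (edgeR adjusted p = 0.048), close to the threshold. Cep131, a protein of the centriolar satellites, fell by 0.32, from 45.1 ± 1.58 to 36.1 ± 1.10 CPM (SD, n = 2, edgeR adjusted p = 0.033). The linker genes Cep250 and Cep68 stood at 0.12 and 0.06 and the satellite gene Cep72 at 0.11, and none of these passed the test.

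The 3 tested Cep genes placed in no role group included both the most abundant member and another large rise. Cep85l, in which human mutations disturb the migration of cortical neurons, had 16.5 and 14.7 CPM in the control mice and 26.1 and 31.2 CPM in the surgery mice, a log2 fold change of 0.88 (standard error 0.13, edgeR adjusted p = 0.0068). Cep95 rose by 0.56 (edgeR adjusted p = 0.040). Cep170b (chr12:112720455-112746592, plus strand), the paralogue of Cep170, went the other way, with 275.8 and 311.8 CPM in the control mice and 220.2 and 219.5 CPM in the surgery mice. Its log2 fold change was -0.42 (standard error 0.07, edgeR adjusted p = 0.010), and it fell while Cep170 rose. Per kilobase of the longest transcript it was the most abundant member tested, at 44.2 CPM per kb in the control mice and 33.1 in the surgery mice. The lowest level per kilobase was that of Cep72, at 0.603 in the control mice.

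**Figure D2:**
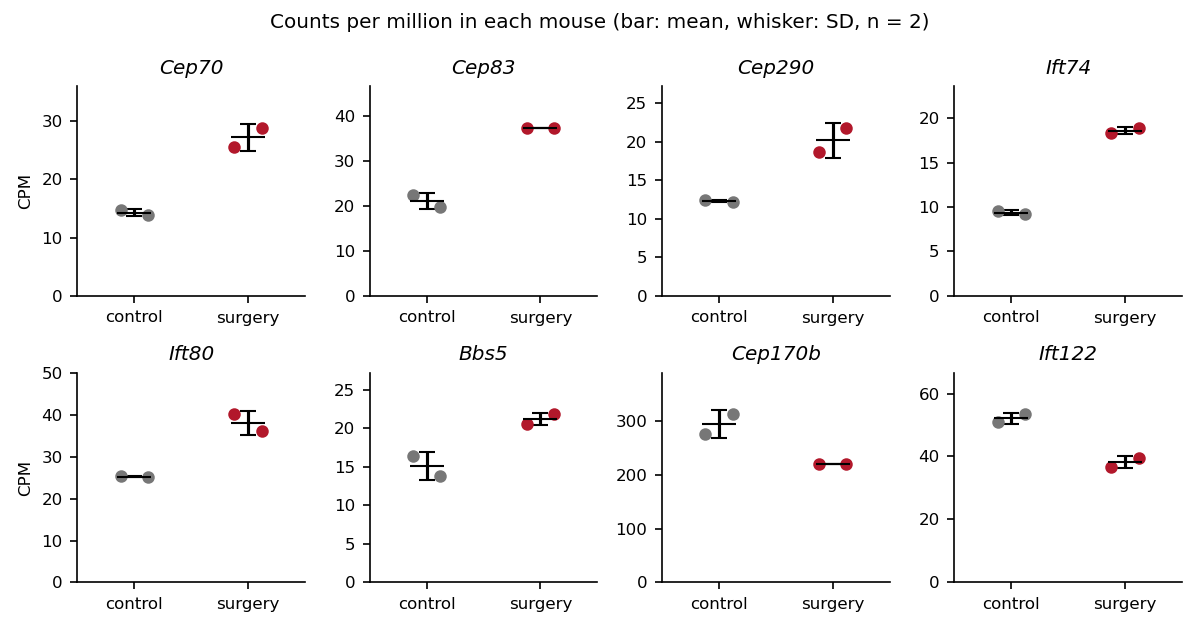
CPM in each mouse for Cep70, Cep83, Cep290, Ift74, Ift80, Bbs5, Cep170b and Ift122, with axes that start at 0. Points are mice (gray for control, red for surgery), horizontal bars are means and whiskers are the SD of 2 mice. In none of the 8 genes do the groups overlap, and the last 2 are lower in the surgery mice. These genes were picked from members that passed the test. Of all genes tested, both surgery mice lay above both control mice in 33.2% and below them in 32.2%.

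In the IFT-B complex, 3 of 11 genes rose and 1 fell, where 13.1% of all genes tested rose and 12.8% fell. Ift74 and Ift81, which together bind tubulin cargo at the core of the train, both rose. Ift74 (chr4:94614491-94693229, plus strand) had 9.58 and 9.19 CPM in the control mice and 18.3 and 18.9 CPM in the surgery mice, and its 1.98-fold rise was the largest among all members (log2 fold change 0.99, standard error 0.13, edgeR adjusted p = 0.0051). Ift81 had 26.5 and 23.6 CPM and then 35.3 and 34.0 CPM, a rise of 0.47 (edgeR adjusted p = 0.019). The levels of these partners were thus both higher without overlap between the groups, by unequal amounts. Ift80, a peripheral subunit, had 25.3 and 25.1 CPM in the control mice and 40.1 and 36.1 CPM in the surgery mice, a rise of 0.59 (standard error 0.10, edgeR adjusted p = 0.0078). Ift22, a small GTPase of the complex, fell by 0.30, from 52.0 and 47.98 CPM in the control mice to 39.5 and 41.8 CPM in the surgery mice (edgeR adjusted p = 0.045). Ift172, the IFT-B subunit with the highest CPM, had 92.0 and 86.4 CPM in the control mice and 75.7 and 77.0 CPM in the surgery mice, with a log2 fold change of -0.22 and an adjusted p of 0.057. Ift88, whose loss abolishes cilia, stood at 0.31 (edgeR adjusted p = 0.094). The remaining 5, Ift52, Ift57, Ift46, Ift20 and Ift27, ranged from -0.30 to 0.10 and did not pass the test.

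In the IFT-A complex, 1 of 3 genes fell and 0 rose, against 12.8% and 13.1% of all genes tested. Ift122 (chr6:115853470-115926699, plus strand) had 50.8 and 53.3 CPM in the control mice and 36.8 and 39.5 CPM in the surgery mice, without overlap. Its log2 fold change of -0.45 (standard error 0.08, edgeR adjusted p = 0.012) was the largest fall of any member. Ift140 stood at -0.22 and Ift43 at 0.16, and neither passed the test.

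Of the 6 BBSome subunits, 2 rose, against 13.1% of all genes tested. Bbs5 (chr2:69647171-69667571, plus strand) had 16.4 and 13.8 CPM in the control mice and 20.6 and 21.8 CPM in the surgery mice, a log2 fold change of 0.49 (standard error 0.13, edgeR adjusted p = 0.036). Bbs4 had 29.0 and 28.9 CPM and then 37.5 and 36.6 CPM, a log2 fold change of 0.36 (standard error 0.08, edgeR adjusted p = 0.026). Both were separated between the groups, and both changes were under the fold threshold of a DEG. Bbs1 and Bbs2 were lower in both surgery mice than in both control mice, at -0.10 and -0.21, and Bbs7 and Bbs9 overlapped between the groups at 0.07 and -0.03. None of these passed the test. The chaperonin-like Bbs10 and Bbs12 had 3.83 to 5.81 CPM over the 4 mice and log2 fold changes of 0.10 and 0.06 with standard errors of 0.24 and 0.23, too wide to show a change of the size seen for Bbs4.

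The GC content of the transcripts separated the members that rose from those that fell. All 20 members that rose had a longest transcript with less GC than the median of all genes tested (49.6%), and all 4 that fell lay above it. Of the 38 members below that median 20 rose and 0 fell, where 25.2% of all genes below it rose and 2.29% fell. Among the 18 members at or above it 0 rose and 4 fell, where 1.03% of all genes there rose and 23.4% fell. Cep genes below the median rose in 15 of 25 cases. Spearman's rho between log2 fold change and GC content was -0.77 over 34 Cep genes, -0.73 over 14 Ift genes and -0.88 over 8 Bbs genes, and -0.63 over 17120 genes tested. These are descriptions across genes that share the same 4 libraries. The Cep170 and Cep170b pair followed the same pattern, with 43.1% GC in Cep170 and 60.7% in Cep170b. In the Ift family, Ift74, Ift80 and Ift81 had 40.9% to 43.2% GC, while Ift122 and Ift22 had 53.1% and 51.6%.

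**Figure D3:**
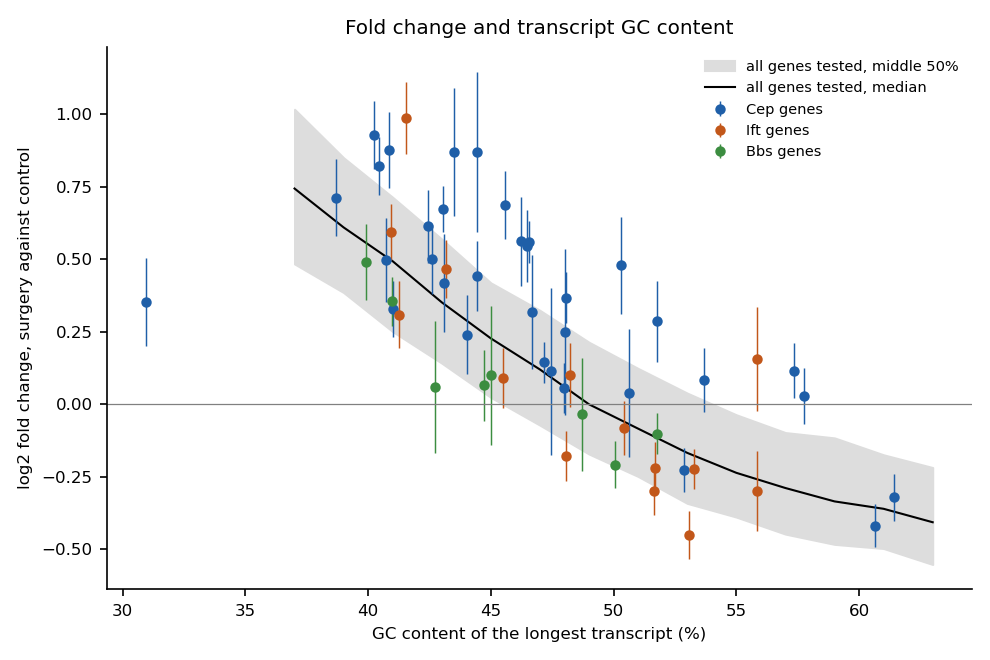
Log2 fold change (surgery against control) against the GC content of the longest transcript in percent, for the Cep (blue), Ift (orange) and Bbs (green) genes with standard errors. The black line and gray band are the median and the middle 50% of all genes tested in bins of GC content. The members fall with GC content as the band does, and many Cep points lie on its upper edge or above it.

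When each library's trend with transcript length and GC content was taken out, none of the 56 members passed the edgeR test, and 118 genes overall (0.689%) were higher and 296 (1.73%) lower. At an unadjusted p under 0.05, 15 members were higher and 4 lower with the correction, among them 14 and 1 of the Cep genes, where 7.9% of the 17120 genes fitted with it were higher and 14.6% lower at that threshold. With the replicate number as a block beside the correction, 5 Cep genes and 1 Ift gene were higher and 1 of each was lower, against 4.07% higher and 9.07% lower over all genes in that fit, although the labels do not say that the numbers pair the mice. The median log2 fold change after correction was 0.20 for Cep genes, -0.09 for Ift genes and -0.13 for Bbs genes, against -0.03 over all genes tested. Of the 31 Cep genes with a positive value, 26 kept it after the correction, as did 5 of 7 Ift genes and 0 of 5 Bbs genes. Cep70 went from 0.93 to 0.42 (edgeR adjusted p = 0.090), Cep83 from 0.82 to 0.32 and Ift74 from 0.99 to 0.56 (edgeR adjusted p = 0.070). Cep290, with 38.7% GC, went to 0.07, and Ift80 to 0.11. Bbs4 and Bbs5 turned to -0.11 and -0.05. The falls of Ift122 and Cep170b were -0.32 (edgeR adjusted p = 0.080) and -0.11, and Cep131 stood at 0.01. Cep44, which has the lowest GC content of all members at 31.0%, moved from 0.35 to -0.95. No protein-coding gene tested had a lower GC content, so this value rests on the edge of the fitted trend. With the median transcript in the correction, Cep44, Bbs4 and Bbs5 kept positive values. The correction takes out any change that goes with GC content, of whatever origin, and the origin of the trend was not tested.

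**Figure D4:**
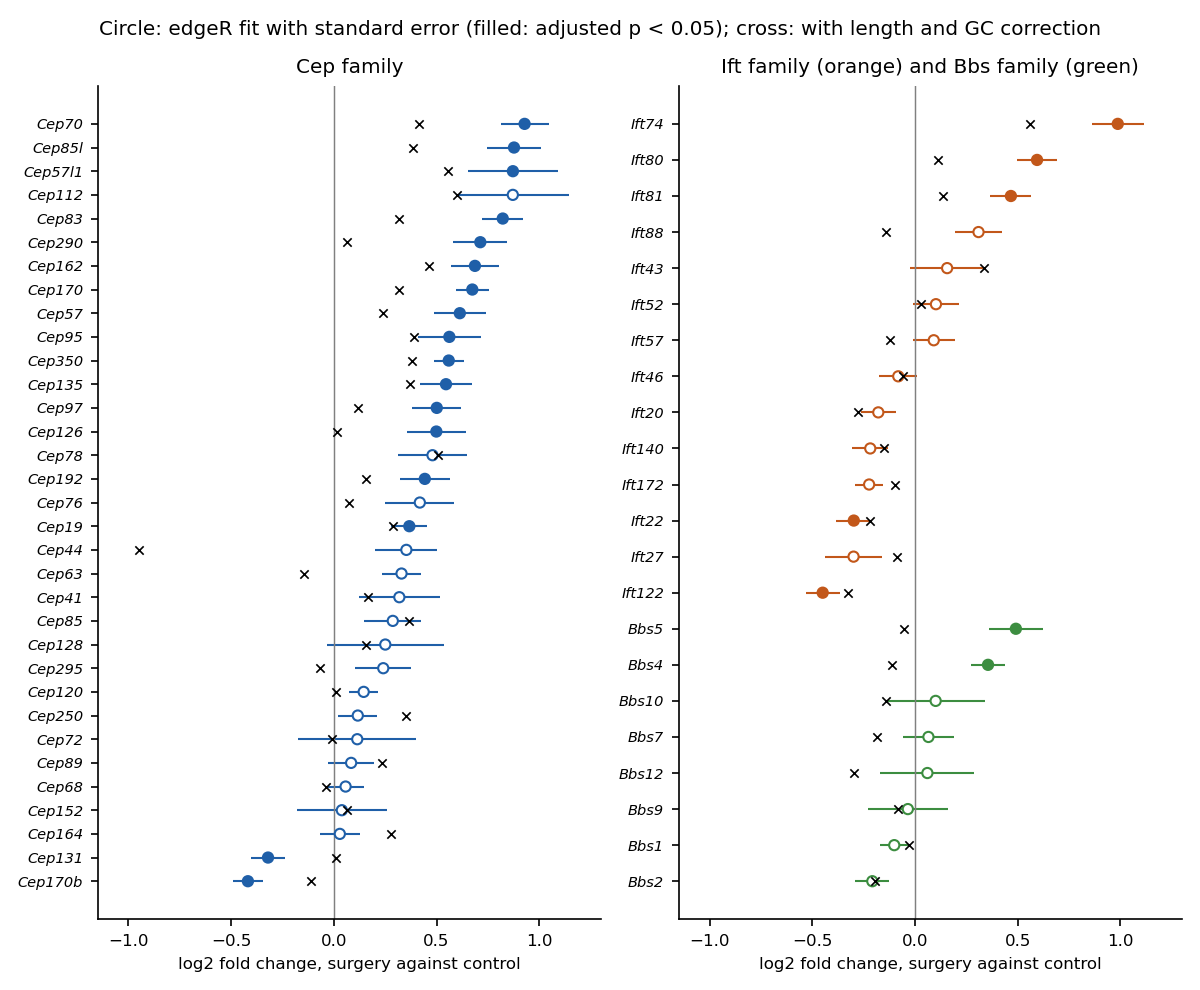
Log2 fold change of 55 of the 56 members tested (surgery against control) from the edgeR fit, as circles with the standard error, filled where the adjusted p was under 0.05, and as crosses with the length and GC correction. Most crosses of the Cep panel lie to the left of their circles but still right of 0, whereas all Bbs crosses lie left of 0. The crosses rest on the longest transcript of each gene, and with the median transcript Bbs1, Bbs4 and Bbs5 were positive.

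Leaving out each mouse in turn, 8 to 9 of the Cep genes rose, in place of 15, and the share of all genes that rose was 6.88% to 11.7%, in place of 13.1%. Each of these fits has a single mouse in one group, which is assumed to vary like the mice of the other group. The calls of Cep70, Cep83, Cep85l, Cep162, Cep170, Cep170b, Cep290, Cep350, Ift74 and Ift80 passed in all 4 of these fits. Those of Cep57l1, Cep95, Cep126, Cep131, Cep192, Bbs4 and Ift22 passed in 0 of 4. Exons of 14 members overlap a gene on the opposite strand, among them Cep70, Cep85l, Cep57l1, Cep290, Cep170, Cep95 and Bbs4 of the members that rose, and the use of strand in the counting is not given in the sources used here. Exons of Bbs12 and Cep131 overlap a gene on the same strand.

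The partners of the 3 families with other names were mixed as well. For comparison with the counts of each list, 13.1% of all genes tested rose and 12.8% fell. Of 9 other genes of the BBSome and of Bardet-Biedl syndrome, 4 rose and 1 fell, and Lztfl1, which regulates BBSome traffic, and the GTPase Arl6, which recruits the BBSome to membranes, both rose by 0.80. Among 12 other centriole assembly genes 3 rose and 1 fell. The centrins Cetn2 and Cetn3 rose by 1.198 and 1.10, more than any Cep gene. Of 8 other appendage genes 3 rose and 1 fell, and Sclt1, which needs Cep83 to reach the distal appendages, rose most of all listed genes at 1.43 (standard error 0.19, edgeR adjusted p = 0.0053), while the kinase Ttbk2 rose by 0.80. Of 9 satellite genes 3 rose and 0 fell, led by Ccdc66 (0.70) and the satellite scaffold Pcm1 (0.49). Of 13 genes of the pericentriolar material and linker 1 rose and 3 fell, with Akap9 at 0.52 and gamma-tubulin Tubg1 at -0.35. With the length and GC correction only Sclt1 and Cetn2 of these lists passed the test, at 1.10 and 0.76 (edgeR adjusted p = 0.043 and 0.033). Lztfl1 and Arl6 stood at 0.06 and 0.30 (edgeR adjusted p = 0.71 and 0.197) after it.

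In the lists of the ciliary shaft, calls in both directions occurred, where 13.1% of all genes tested rose and 12.8% fell. Of 10 genes of the neuronal ciliary membrane 1 rose and 3 fell, with the cilium GTPase Arl13b higher by 0.65 and Sstr3 at -0.51. Of 9 motor genes of the transport trains 0 rose and 2 fell, the dynein intermediate chain Wdr34 at -0.57 and the kinesin Kif17 at -0.45. Of 9 transport subunits named otherwise only Ttc26 rose, by 0.57, and 0 fell. The transition zone list had 3 of 15 higher, among them Iqcb1 (0.89), a partner of Cep290, and Tmem67 (0.61), and 2 lower. Of 8 RFX factors and their partners, 2 rose (Rfx7 at 0.68 and Rfx3 at 0.46) and 1 fell. With the length and GC correction 0 genes of these lists passed the test, and Rfx7 stood at 0.36 and Rfx3 at -0.08 (edgeR adjusted p = 0.11 and 0.56). The differences between these lists were not tested.

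**Figure D5:**
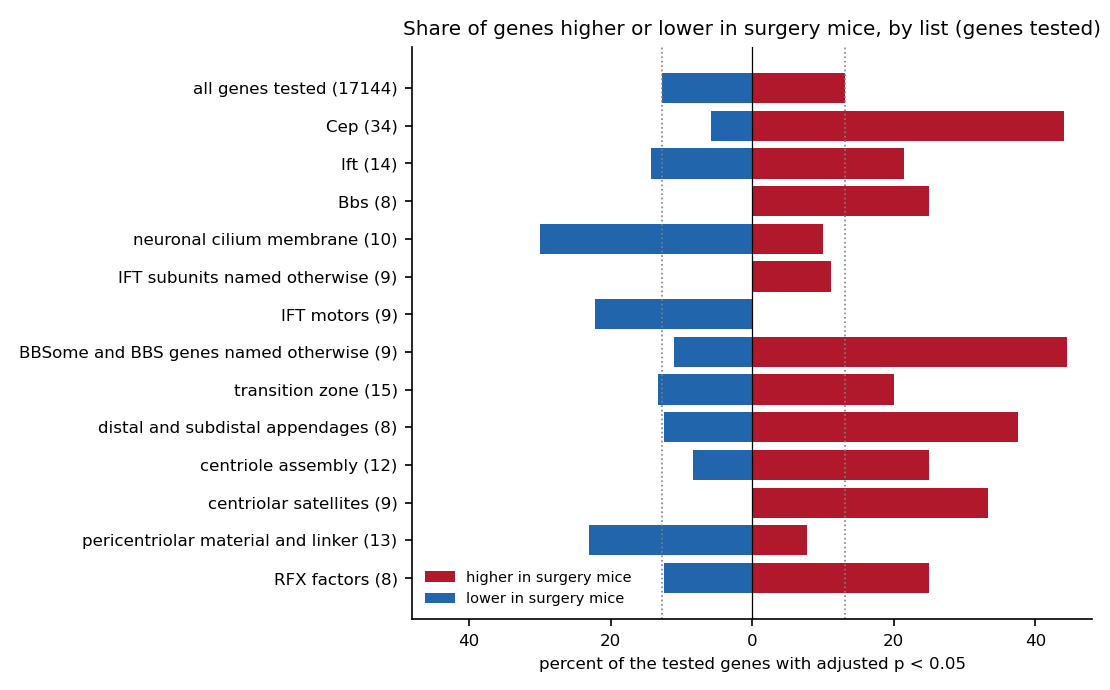
Percent of the genes tested in each list that were higher (red, to the right) or lower (blue, to the left) in surgery mice at an edgeR adjusted p under 0.05, with the number tested in brackets. Dotted lines mark the shares over all genes tested, 13.1% and 12.8%. The Cep family and the other Bardet-Biedl genes reach furthest to the right, at 44.1% and 44.4%, and the neuronal ciliary membrane reaches furthest to the left of the lists drawn, which leave out the cell type markers.

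No marker of motile ciliated or dividing cells passed the edgeR test, also at an unadjusted p under 0.05. For comparison with the calls in the marker lists, 13.1% of all genes tested rose and 12.8% fell at the adjusted threshold. The 14 genes of motile cilia and ependymal cells summed to 65.7 and 83.7 CPM in control mice and to 98.1 and 75.6 CPM in surgery mice, which overlap. Of 10 markers of cycling cells, 5 passed the count filter. The 6 choroid plexus markers summed to 129 and 5414 CPM in control mice and to 2037 and 3450 CPM in surgery mice, so they varied most within the control group. The hippocampal neuron markers, whose summed CPM ran from 918 to 1040 over the 4 mice, were present in every library, with 2 of 6 higher and 2 lower. Among astrocyte markers 3 of 7 rose and 1 fell, and the list summed to 3645 and 3382 CPM in control mice and to 4180 and 3946 CPM in surgery mice. The part of these astrocyte values in the values of the members was not tested. Of the other marker lists, 2 of 8 neuron markers rose and 2 fell, 1 of 6 microglial and 1 of 5 endothelial markers rose, and 0 of 6 oligodendrocyte markers passed the test. With the length and GC correction the only marker calls were 1 higher and 1 lower among the 8 neuron markers.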

How the data were processed

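The deposited table gives, per the labels and the column names, the count of reads on each of 29300 genes in 4 hippocampal libraries, without normalization. The authors filtered paired-end reads and mapped them to mm10 with HISAT, and the submitters' processing notes name Bowtie2 2.2.3, HISAT2 2.1.0, TopHat2 and HTSeq 0.6.0 without their roles. The authors' fold changes, p-values and marks of significance were not used. Members and gene lists were chosen with earlier results of these data known.

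The tests were run in edgeR 4.0.16 under R 4.3.3 (filterByExpr with a minimum count of 10, TMM, glmQLFit and glmQLFTest, Benjamini-Hochberg adjustment over 17144 genes), with limma 3.58.1 loaded. DESeq2 1.42.0 served as another test. Condition was the only term. Transcript length and GC content were those of the longest GENCODE M21 transcript, chosen over the median transcript before the correction was fitted, and their trends in each library were fitted with mgcv 1.9.3 (basis size 8) and used as offsets. Replicates differed by more than counting noise (chi-square per degree of freedom 13.4 for control and 8.45 for surgery mice). Sequence windows of 75 nt were compared between genes to find shared sequence. Coordinates are those of the deposited table for 58 members, of which 51 had equal coordinates in GENCODE. The scripts were tested on simulated data. The spread used to draw these data was changed from gene-by-gene estimates to a trend over genes after a first outcome had been seen. No outcome of this test is used here. Named were all Ift and Bbs members, all Cep members with an assigned role, the Cep genes that passed the test, up to 10 by size of rise and 5 by size of fall, and, of each other list, the 2 genes with the largest change that passed. Adcy3 is named as background only. The values of 1 member are not reported here, and it stays in the family counts and medians.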

Additional observations from a re-analysis of the deposited data

How the results depend on the processing

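With 2 mice per group the number of calls moved more than the directions. Leaving out each mouse in turn, the Cep genes higher numbered 8 to 9 and the Cep genes lower 1 in each fit, the Ift genes lower 0 to 1, the Ift DEGs higher 1 to 2, the Bbs genes higher 0 to 1 and the Bbs DEGs higher 0 to 1. The medians ran from 0.38 to 0.46 for Cep, from -0.0624 to 0.0285 for Ift and from 0.0288 to 0.14 for Bbs genes. Without the filter on low counts 9 Cep genes were higher and 1 lower, 1 Ift gene was lower, 1 was a higher DEG and 0 Bbs genes were higher. By DESeq2's test 11 Cep genes were higher, 1 Cep and 1 Ift gene were lower and 0 Bbs genes higher. Scaled by library totals only, 1 Cep and 1 Ift gene were lower, and the medians were 0.44 for Cep and 0.11 for Bbs genes. A minimum count of 50 gave a Bbs median of 0.0900. Over all genes tested, 2649 were higher and 1810 lower with library totals, against 2249 and 2201, and the causes were not tested.

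With the length and GC correction, 0 Cep genes were higher or lower, 0 Ift genes were higher or lower, 0 Bbs genes were higher and 0 members were DEGs, and the medians were 0.20, -0.0927 and -0.13 for Cep, Ift and Bbs. With the median over a gene's transcripts in place of the longest the counts were 0 too, with medians of 0.19, -0.12 and -0.18, and with GC content alone they were 0, with 0.19, -0.0940 and -0.13. These 2 settings were added after the data had been seen.

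The labels number the mice 1 and 2 in each group without saying that a number is shared between groups, and same-numbered mice had deviations that correlated at 0.22 over genes, with 2 pairs only, so the numbers were not taken as pairs. With the replicate block, 17 Cep genes were higher and 2 lower, 3 Ift genes higher and 3 lower, and 2 Bbs genes higher, against 15.5% of all genes higher and 15.3% lower. With the block and the length and GC correction together, where 4.07% of all genes were higher and 9.07% lower, 5 Cep genes were higher and 1 lower, 0 were higher DEGs and 1 was a lower DEG, 1 Ift gene was higher and 1 lower, 0 were higher DEGs and 0 Bbs genes were higher, with medians of 0.20, -0.0914 and -0.13.

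Directions of single genes changed mostly under the corrections. Under the length and GC correction, with it and the block, and with GC content alone, in this order, Bbs10 had -0.14, -0.14 and -0.15, Bbs12 had -0.30, -0.29 and -0.31, Bbs4 had -0.11, -0.11 and -0.12, Bbs5 had -0.0519, -0.0496 and -0.0541, Bbs7 had -0.18, -0.18 and -0.20, Cep131 had 0.00912, 0.00898 and 0.000388, Cep295 had -0.0654, -0.0584 and -0.0581, Cep44 had -0.95, -0.95 and -0.98, Cep63 had -0.15, -0.15 and -0.14, Cep68 had -0.0365, -0.0377 and -0.0386, Cep72 had -0.00788, -0.0116 and -0.00803, Ift57 had -0.12, -0.12 and -0.13, Ift88 had -0.14, -0.14 and -0.15. With the median transcript, Bbs1 had 0.12, Bbs10 had -0.22, Bbs12 had -0.37, Bbs7 had -0.33, Cep126 had -0.0433, Cep128 had -0.0319, Cep192 had -0.0335, Cep290 had -0.0439, Cep295 had -0.21, Cep72 had -0.11, Ift52 had -0.12, Ift57 had -0.13, Ift88 had -0.0668. With library totals only, Bbs9 had 0.0121. Leaving out each mouse in turn, Bbs10 ran from -0.13 to 0.29, Bbs12 ran from -0.14 to 0.29, Bbs7 ran from -0.028 to 0.16, Bbs9 ran from -0.27 to 0.17, Cep128 ran from -0.0572 to 0.49, Cep152 ran from -0.17 to 0.28, Cep164 ran from -0.027 to 0.0866, Cep68 ran from -0.000442 to 0.11, Cep72 ran from -0.18 to 0.37. None of the members that changed direction when a mouse was left out had passed the test with all 4 mice.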

Other observations

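Among the noncoding genes with names taken from the members, Cep83os, a long noncoding RNA that shares a promoter region with Cep83 in reverse, had 439, 436, 436 and 535 counts (control mice first), a log2 fold change of 0.26 with an edgeR adjusted p of 0.14. Ift88os, on the opposite strand to Ift88, had 9, 8, 10 and 6 counts, and Cep112it, within an intron of Cep112, had 1, 1, 1 and 2. Neither passed the count filter.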
